A study of Mus musculus with 12 samples.

Results

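The ancient short interspersed elements, or SINEs, of the mouse were taken as the repeat names of class SINE whose family is not Alu, B2, B4 or ID. The choice used class and family alone and gave 9 of the 18538 repeat names counted, and 9 of the 38 names of the SINE class. The MIR family supplied 5 of them, namely MIR, MIRb, MIRc, MIR3 and MIR1_Amn. The other 4 were MamSINE1 of family tRNA-RTE, LFSINE_Vert of family tRNA, AmnSINE1 of family 5S-Deu-L2 and AmnSINE2 of family tRNA-Deu. A single further name, whose class is marked as uncertain (SINE?), was outside the rule.

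MIR stands here for mammalian-wide interspersed repeat and not for microRNA. SINEs are short elements without proteins of their own, which were copied by the enzymes of longer elements, the LINEs. MIR elements have a head derived from a transfer RNA and an end that resembles the LINE L2, and they spread in early mammals. They no longer move, and their copies lie scattered within introns, untranslated regions and the DNA between genes, so that reads on them are usually taken to come from the transcripts around them. No gene or intron was among the rows counted, so that origin was not tested here.

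Total RNA was sequenced from mouse embryos of strain C57BL/6 that had reached the 2-cell stage, 1.5 days post fertilization, the stage at which the mouse embryo's own genome becomes broadly active. The 6 KO libraries (m-/p-) were from oocytes of Kdm4a knockout origin and the 6 WT libraries (m+/p-) from wildtype oocytes, and knockout sperm was used for either kind, so that all embryos lacked a paternal copy. Kdm4a encodes a demethylase of histone H3. The labels do not state how many embryos or females a library stands for, so p-values measure the spread between these libraries, which may be technical.

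MERVL-int and MT2_Mm, repeats whose RNA marks this stage, had at least 19686 and 4498 normalised CPM in each of the 12 libraries. Both were lower in every KO library than in any WT library, MERVL-int with a mean of 32176 in KO and 66061 in WT and MT2_Mm with 7138 in KO and 13478 in WT (log2 fold changes -1.04 and -0.92, adjusted p by edgeR of 0.0159 and 0.0229). Such a separation with KO below was seen in 46 of 3312 tested repeats. CPM stands here for the read count per 1000000 counts of a library size that was corrected for composition by TMM. Kdm4a and genes that mark other cells were not analysed here. Libraries held from 7952526 to 18902360 counts, of which the ancient SINEs took 61301 to 147258. In a principal component analysis the library farthest from the median was WT replicate 2 on component 1 (26.7% of the variance) and KO replicate 5 on component 2 (16.2%), and results are also given without them.

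The MIR family made up most of the ancient SINE counts, and the shares of its names varied little from library to library, unlike that of MamSINE1. The 5 MIR names held 92.6% ± 0.851 of these counts in KO and 90.2% ± 1.09 in WT (SD, n = 6 each). MIRb supplied 31.4% ± 0.522 in KO and 30.3% ± 0.589 in WT, and MIR supplied 28.6% ± 0.346 in KO and 27.2% ± 1.24 in WT. MIRc ran from 16.4% to 17.6% and MIR3 from 11.2% to 12.7% over the 12 libraries, and MIR1_Amn from 3.18% to 3.84%. Among the remaining names, MamSINE1 ranged most widely, from 3.14% to 8.14%, with means of 4.10% in KO and 6.43% in WT. LFSINE_Vert, AmnSINE1 and AmnSINE2 each stayed under 2% of the total. The number and length of the copies behind each name were not used here, so these shares do not rank the names by transcription.

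The comparison of KO with WT asked whether RNA from these old elements changed when the maternal Kdm4a was missing. All 9 names passed the filter on low counts, and none was called by edgeR's quasi-likelihood test (0 of 9 at an adjusted p under 0.05, Benjamini-Hochberg over 3312 tested repeats). Over all tested repeats the same rule called 1.42%. At an unadjusted p under 0.05, 1 member was higher in KO, MIR, and 1 lower, MamSINE1, where 5.5% of all tested repeats were higher and 7.91% lower. DESeq2 called 1 member, MamSINE1, which was lower, and called 5.1% of all repeats, 3.83% as lower. Limma-voom with quality weights called 0 members and 2.11% of all repeats. Of the 9 log2 fold changes, 7 were above 0 and 2 below, with a median of 0.08, while 1696 of the 3312 tested repeats were above 0, with a median of 0.011.

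**Figure D1:**
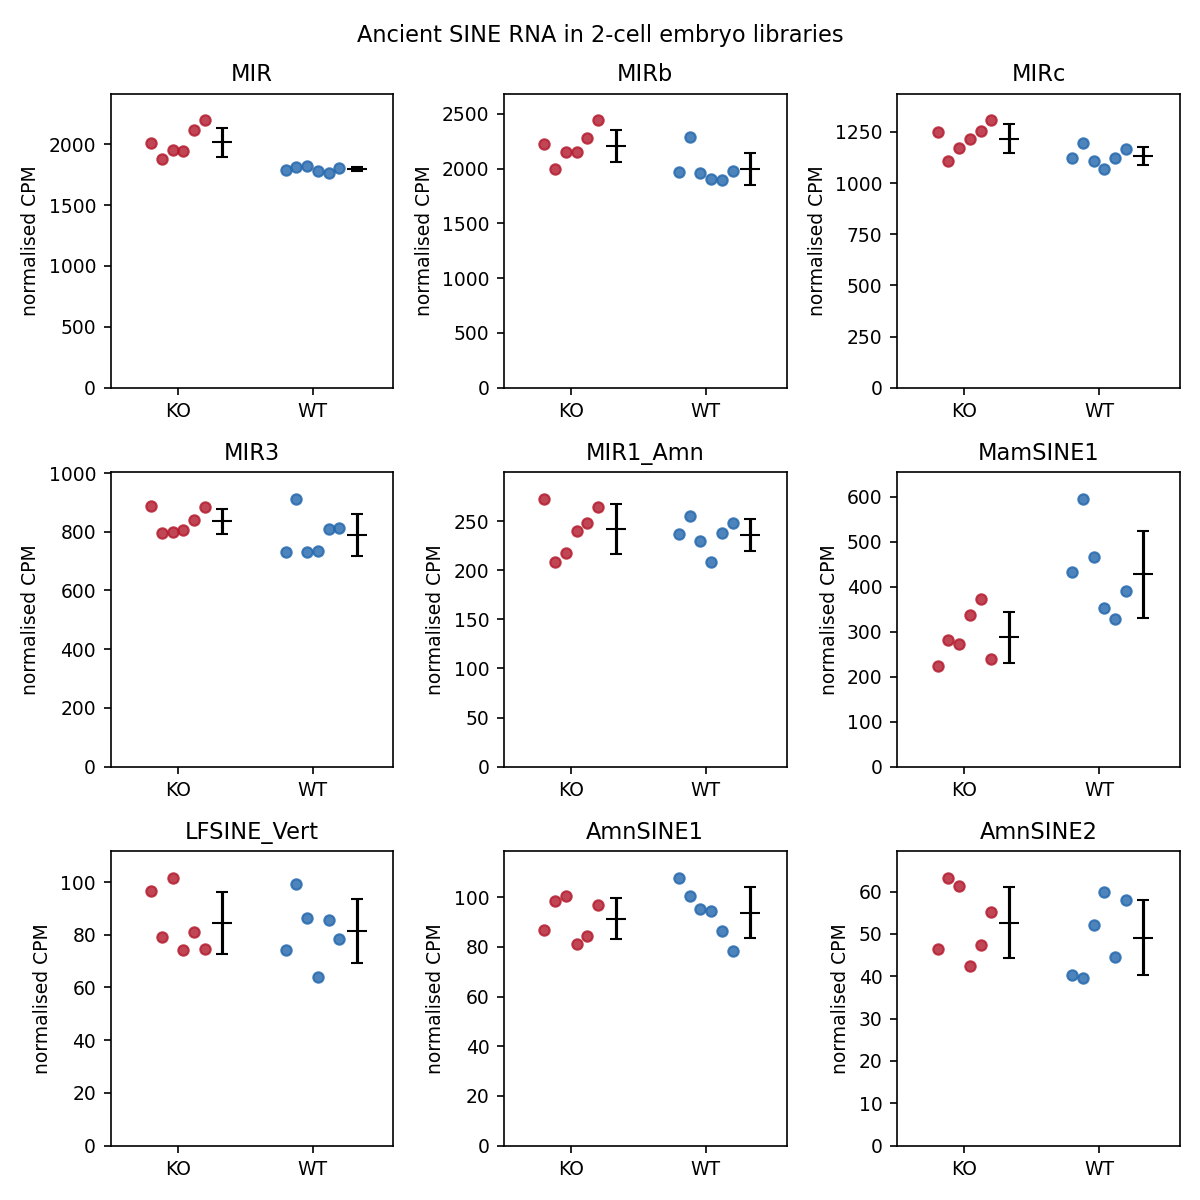
Normalised CPM (counts per 1000000, TMM) of each ancient SINE name in the 6 KO and 6 WT libraries; points are libraries, horizontal marks the mean and bars 1 SD, and each vertical axis starts at 0. The KO points of MIR lie above all WT points, while those of MamSINE1 run from 222.6 to 372.1 against 327.3 to 594.2 in WT.

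MIR was the 1 member whose groups did not overlap. Its CPM had a lowest value of 1874, a median of 1981 and a highest value of 2197 in KO, against 1767, 1796 and 1818 in WT. All 6 KO libraries lay above all 6 WT libraries. Such a separation with KO above was seen in 0.725% of the tested repeats. It was also seen in 3 of 11 tested names of the LINE L2, 1 of 8 B4 and ID names and 4 of 236 DNA transposons. Among 16 Alu, 5 B2, and 25 CR1 and RTE names it was seen in 0. The difference for MIR was small, with a log2 fold change (KO over WT) of 0.17 ± 0.06 (SE, 1.12-fold, 95% interval 0.05 to 0.29 on the log2 scale), and it did not pass (edgeR, adjusted p = 0.167). Leaving out single libraries gave adjusted p from 0.103 to 0.353, and without both WT replicate 2 and KO replicate 5 the log2 fold change was 0.16 (edgeR adjusted p = 0.286).

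MIRb, a subfamily close to MIR in sequence, had a lowest CPM of 1999, a median of 2190 and a highest of 2442 in KO, against 1895, 1968 and 2289 in WT. The groups overlapped through WT replicate 2 with 2289 CPM, while the other WT libraries reached at most 1976, under every KO library. Its log2 fold change was 0.14 ± 0.07 (SE, edgeR adjusted p = 0.388), or 0.19 without WT replicate 2 (adjusted p = 0.197).

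MIRc had 1106 to 1307 CPM in KO, with a median of 1233, against 1071 to 1197 in WT, with a median of 1123. In 4 of 6 KO libraries it was above every WT library, and the log2 fold change was 0.10 ± 0.06 (SE, edgeR adjusted p = 0.484). MIR3 had 795.2 to 887.7 CPM in KO, with a median of 822.5, against 730.5 to 910.7 in WT, with a median of 771.5. All of its KO libraries were above the WT median, yet none was above the highest WT library, and the log2 fold change was 0.08 ± 0.07 (SE, edgeR adjusted p = 0.674). MIR1_Amn had medians of 244.4 CPM in KO and 237.0 in WT, a log2 difference of 0.036 ± 0.08 in the fit (SE, edgeR adjusted p = 0.922).

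The MIR names kept close ratios to one another within a library, and such ratios do not depend on scaling. The log2 ratio of MIRb to MIR was 0.13 ± 0.03 in KO and 0.15 ± 0.09 in WT (SD, n = 6 each). Its highest value, 0.34, was that of WT replicate 2. The log2 ratio of MIRc to MIR was -0.73 ± 0.04 in KO and -0.67 ± 0.05 in WT, and that of MIR3 to MIR was -1.27 ± 0.06 in KO and -1.19 ± 0.13 in WT. MIR1_Amn kept the least close ratio of the 4, at -3.06 ± 0.11 in KO and -2.93 ± 0.10 in WT. Over the 12 libraries the SDs of these 4 log2 ratios were 0.06, 0.05, 0.10 and 0.12, against counting errors of 0.0125, 0.0147, 0.0166 and 0.0272. The spread was thus several times the counting error, and since molecules carried no identifiers, counting error is a lower limit. How reads that fit several MIR names were divided is not stated in the labels or files, which leaves the levels of the separate names uncertain.

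MamSINE1 had the lowest log2 fold change of the 9. This SINE is built, by its family name, of a transfer RNA head and a tail of the RTE kind of LINE. Its CPM was 222.6 at the lowest, 276.4 at the median and 372.1 at the highest in KO, against 327.3, 411.6 and 594.2 in WT. Every KO library was under the median of WT, and 4 of the 6 were under the lowest WT library. KO replicates 4 and 5, with 336.4 and 372.1 CPM, overlapped with WT replicates 4 and 5, with 353.3 and 327.3. The log2 fold change was -0.57 ± 0.15 (SE, 95% interval -0.90 to -0.24), or 0.672-fold, and did not pass edgeR's test over all repeats (adjusted p = 0.0759).

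Whether MamSINE1 passed depended on the test. The call was made by DESeq2 (log2 fold change -0.58, adjusted p = 0.0113) and by edgeR on repeats with a mean of at least 10 CPM (-0.56, adjusted p = 0.0230, where 6.36% of 1447 repeats were called lower). Over the fits that left out single libraries, the adjusted p ran from 0.0626 to 0.176, and without both WT replicate 2 and KO replicate 5 it was 0.0750, with a log2 fold change of -0.54. The largest TMM factors, 1.26 and 1.24, were those of KO replicates 1 and 6, which had the lowest MamSINE1 CPM (222.6 and 239.5), and the smallest, 0.767, was that of WT replicate 2, which had the highest (594.2). By total counts, which leave out these factors, the log2 fold change was -0.25 (edgeR adjusted p = 0.172) in a fit whose median over all repeats was 0.32. Relative to that median it was -0.57, as with TMM scaling. Taking off the median centres the fit much as TMM does (median 0.011), so this match was built in and is no further support.

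Within a library, the log2 ratio of MamSINE1 to MIR was -2.83 ± 0.30 in KO and -2.10 ± 0.30 in WT (SD, n = 6 each), and all KO libraries (-3.20 to -2.51) were below all WT libraries (-2.43 to -1.61). Of the 8 ratios of a member to MIR, this was the only 1 whose groups did not overlap. MIR itself was higher in every KO library, which adds to the difference in this ratio. How many of all repeats separate in this way against MIR was not counted. The ratio was looked at after the values were seen and is given without a test.

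**Figure D2:**
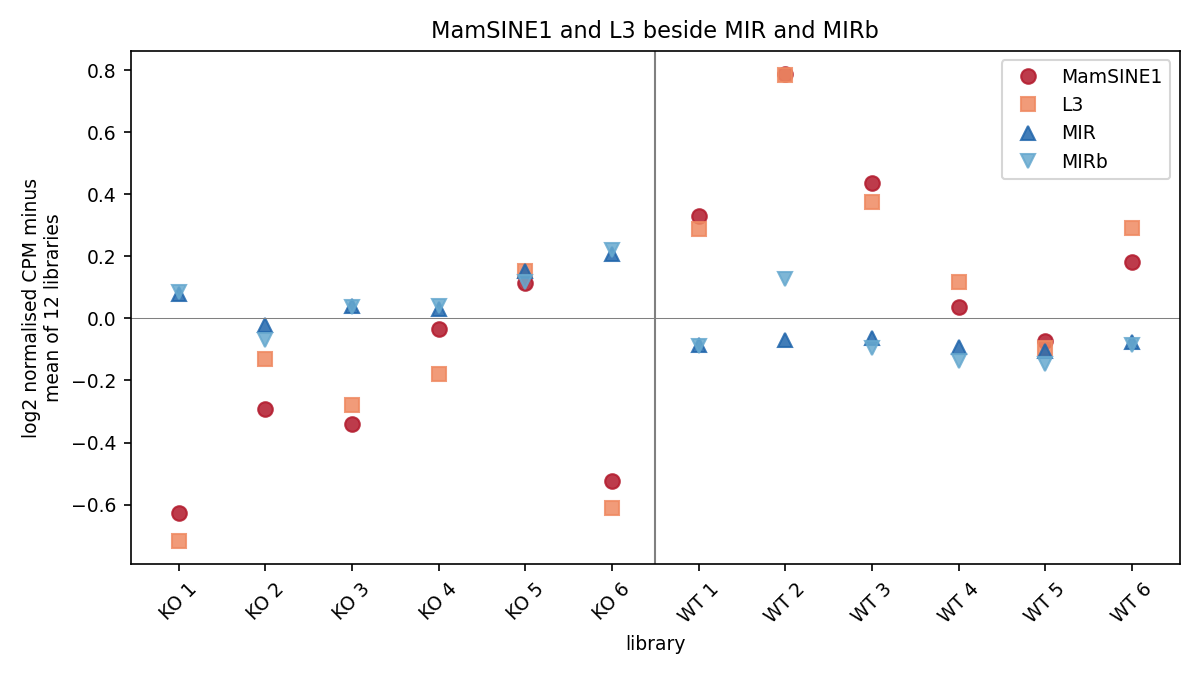
Log2 normalised CPM of MamSINE1, L3, MIR and MIRb in each library, minus that name's mean over the 12 libraries, with KO libraries on the left of the vertical line and WT libraries on the right. The points of MamSINE1 and L3 follow each other from library to library and are highest in WT replicate 2, while those of MIR and MIRb spread over a narrower range.

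Outside the ancient SINEs, the repeat whose RNA followed MamSINE1 most closely was L3, an old LINE of the CR1 family. Likeness was measured by the SD over the 12 libraries of the log2 ratio of counts, which is small where 2 names rise and fall together. For L3 it was 0.09, the smallest among 1444 repeats with a mean of at least 10 CPM, whose median was 0.47. The count of MamSINE1 was 0.175 ± 0.0141 of that of L3 in KO and 0.172 ± 0.00806 in WT (SD, n = 6 each). L3 was picked for its steady ratio, so these values restate the choice. The SDs of the log2 ratio, 0.12 in KO and 0.07 in WT, exceeded the counting errors of 0.024 and 0.021. Ranks 2 to 5 went to ORR1B2-int (ERVL-MaLR family), RLTR12D (ERVK), ORR1F-int (ERVL-MaLR) and L1MdF_III (L1), with SDs from 0.13 to 0.15. By family, the closest names were thus not only old LINEs. Their log2 fold changes were -0.49, -0.71, -0.69 and -0.56. A small SD over KO and WT together requires a fold change near that of MamSINE1. The fold changes of these names and of L3 therefore follow from the choice. MIR ranked 745 on this list and L2a, a common L2 subfamily, ranked 862. This likeness was looked at after the values were seen, with no test.

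L3 had 1208 to 2209 CPM in KO and 1861 to 3427 in WT, and its log2 fold change was -0.58 ± 0.16 (SE, edgeR adjusted p = 0.0760). MamRTE1, an old LINE of the RTE-BovB family and thus of the same kind as the tail of MamSINE1, ranked 7 by likeness, with an SD of 0.16. It fell to 1117 to 1844 CPM in KO, against 1863 to 3656 in WT, a log2 change of -0.81 ± 0.16 (SE, edgeR adjusted p = 0.0212). The groups did not overlap, though the gap was narrow, and such a separation with KO below was seen in 46 of 3312 tested repeats. The count of MamSINE1 was 0.192 ± 0.0159 of that of MamRTE1 in KO and 0.163 ± 0.00959 in WT (SD, n = 6 each). MERVL-int, the retrovirus that marks the stage, was also lower in KO (log2 fold change -1.04), and ranked 114 with an SD of 0.32. Its part in the values of MamSINE1 was not tested. Whether reads were shared among MamSINE1, L3 and MamRTE1, or came from the same transcripts, was not tested.

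The 3 rarest members showed no difference larger than the spread between libraries. LFSINE_Vert, of a SINE group first described in the coelacanth, had 74.1 to 101.4 CPM in KO and 63.9 to 99.4 in WT, with medians of 80.1 and 82.0, and the log2 fold change was 0.056 ± 0.12 (SE, edgeR adjusted p = 0.914). AmnSINE1, which joins a 5S ribosomal RNA head to an L2-like tail, had 81.1 to 100.6 CPM in KO and 78.5 to 107.6 in WT, and the log2 fold change was -0.036 ± 0.09 (SE, edgeR adjusted p = 0.931). AmnSINE2 had 42.5 to 63.1 CPM in KO and 39.5 to 59.9 in WT, and the log2 fold change was 0.10 ± 0.14 (SE, edgeR adjusted p = 0.852). Their counts ran from 332 to 2001 per library, their coefficients of variation between libraries of a group were 8.98% to 18.1%, where counting error alone would give 2.80% to 4.11%, and the 95% intervals of the log2 fold changes were -0.20 to 0.31, -0.24 to 0.17 and -0.20 to 0.40.

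**Figure D3:**
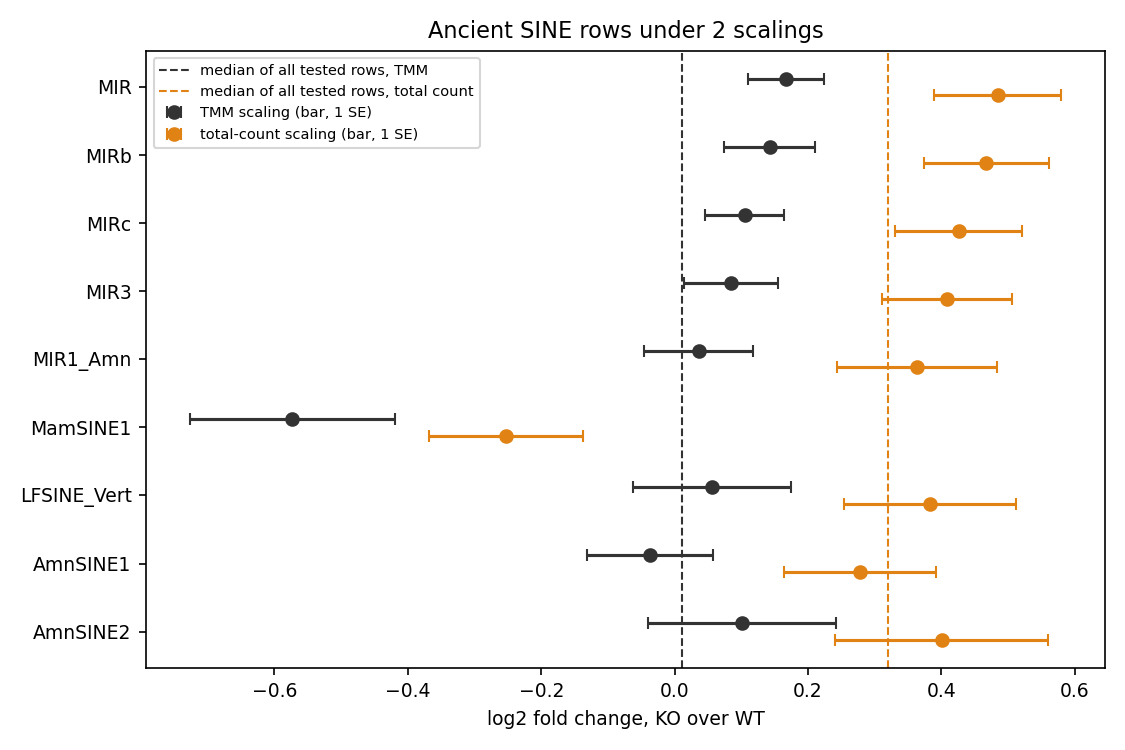
Log2 fold change, KO over WT, of each ancient SINE name with TMM scaling and with total-count scaling; bars are 1 standard error and dashed lines the medians of all tested repeats, 0.011 and 0.32. Relative to those medians the members keep about the same places, with MamSINE1 lowest under either scaling. Taking off a median repeats the centring of TMM, so this likeness is built in.

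The share of all counts gave a larger difference. The ancient SINEs together made up 0.789% ± 0.110 of the counts in KO, from 0.636% to 0.937%, and 0.592% ± 0.0237 in WT, from 0.560% to 0.623% (SD, n = 6 each). All KO libraries were above all WT libraries, a 1.32-fold difference given without a test, since the members were chosen with earlier results of these data known. Terminal repeat elements, the LTR class, took 47.7% ± 2.88 of the counts in KO and 55.9% ± 2.05 in WT, and shares of 1 total are not independent of each other. Among counts outside the LTR class, the ancient SINEs held 1.50% ± 0.146 in KO and 1.34% ± 0.0348 in WT, and the groups overlapped. Among SINE counts they held 4.21% ± 0.311 in KO and 4.28% ± 0.241 in WT, so that the direction turned. A lower amount of one RNA in an embryo cannot be told apart from more of all the others, nor fewer cells of a type from less RNA per cell.

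With total-count scaling, edgeR called 4 of the 9 as higher, in a fit that called 10.8% of all repeats as higher and 0.996% as lower. They were MIR, MIRb, MIRc and MIR3, at 0.48, 0.47, 0.43 and 0.41 on the log2 scale (adjusted p by edgeR of 0.00798, 0.00827, 0.0113 and 0.0135). Relative to the median of all repeats in that fit these were 0.16, 0.15, 0.11 and 0.09, close to the values with TMM scaling. That closeness was built in, since taking off the median centres the repeats much as TMM does. MIR had 1833 to 2723 CPM by total counts in KO and 1391 to 1726 in WT, and MIRb 1955 to 3026 in KO and 1703 to 1851 in WT. For these 2 members all KO libraries were above all WT libraries by total counts, as for 5.8% of all repeats. With total counts taken outside the LTR class, a setting chosen after seeing the data, edgeR called 0 of the 9, and 0.525% of 2666 repeats.

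L2 is the LINE whose end MIR shares. The log2 ratio of MIRb to L2a was 0.39 ± 0.07 in KO and 0.44 ± 0.09 in WT (SD, n = 6 each), a difference of -0.056 that did not exceed the spread (exact permutation test over 924 regroupings, two-sided, p = 0.277, adjusted p = 0.370 over 3 ratios). Against B1_Mm, a young rodent SINE of the Alu family, the log2 ratio of MIRb was -0.62 ± 0.17 in KO and -0.74 ± 0.14 in WT (n = 6, exact permutation p = 0.227, adjusted p = 0.370). Against B2_Mm2, of the B2 family, it was -2.98 ± 0.24 in KO and -2.86 ± 0.21 in WT (n = 6, exact permutation p = 0.370, adjusted p = 0.370). The ratio was above the WT median in 1, 4 and 2 of the 6 KO libraries in these comparisons. No shift of MIRb against L2a, B1_Mm or B2_Mm2 was detectable with 6 libraries per group.

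**Figure D4:**
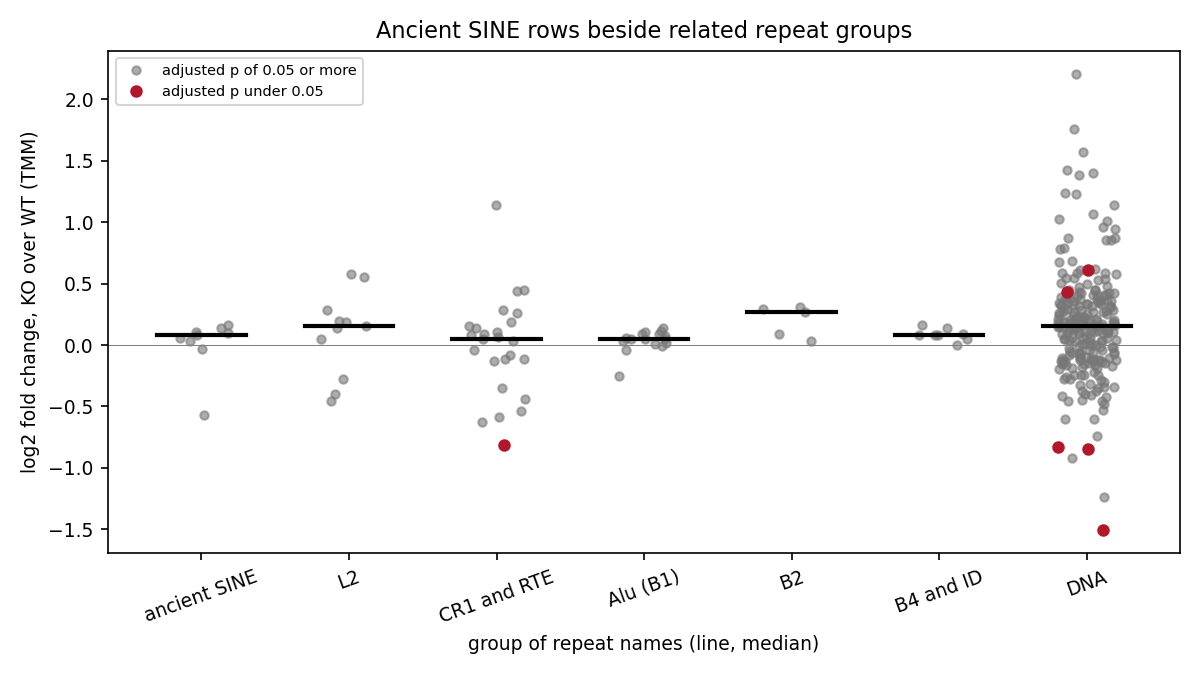
Log2 fold changes, KO over WT with TMM scaling, of the 9 ancient SINE names and of the names in 6 related groups; points are repeat names, red where the edgeR adjusted p was under 0.05, and lines are medians. The ancient SINEs lie around a median of 0.08 with MamSINE1 at -0.57, and no SINE name is red.

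Ratios of summed counts took in all names of a group. The log2 ratio of the summed ancient SINEs to the summed L2 names was 0.38 ± 0.03 in KO and 0.42 ± 0.06 in WT, and to the summed B4 and ID names it was -2.47 ± 0.05 in KO and -2.45 ± 0.04 in WT (SD, n = 6 each). Against the Alu family it was -2.95 ± 0.10 in KO and -3.00 ± 0.08 in WT, and against B2 -3.25 ± 0.20 in KO and -3.15 ± 0.15 in WT. In these 4 ratios the groups overlapped, as in the ratio to DNA transposons, at -1.01 ± 0.10 in KO and -1.08 ± 0.04 in WT. The ratio to the CR1 and RTE families stood apart, at 0.97 ± 0.32 in KO and 0.26 ± 0.21 in WT with no overlap, and L3 and MamRTE1 held 82.8% to 93.7% of the counts of those families. Without L3 and MamRTE1 the ratio was 3.83 ± 0.20 in KO and 3.75 ± 0.15 in WT, and the groups overlapped.

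Of the 11 tested L2 names, 8 had a positive log2 fold change, with a median of 0.16, and edgeR called 0. The most abundant, L2, stood at 0.05 (edgeR adjusted p = 0.786), and L2b and L2c at 0.16 and 0.14, each with overlapping groups. L2a, and L2d2, which was picked after values were seen, stood at 0.20 and 0.29 (edgeR adjusted p = 0.104 and 0.0759). For L2a and L2d2, all KO libraries were above all WT libraries. The 16 Alu, 5 B2 and 8 B4 and ID names had medians of 0.05, 0.27 and 0.08, also with 0 calls. Among 25 tested CR1 and RTE names the median was 0.05, and MamRTE1 was the single call. DNA transposons, with 236 tested names, had a median of 0.15, with 2 called higher and 3 lower.

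The repeats most like the summed ancient SINEs, chosen by the same measure of likeness, were mostly rodent SINEs. RSINE1 of the B4 family came first, with an SD of the log2 ratio of 0.05, followed by B4A of the same family, B1F of the Alu family, ID4_ of the ID family and URR1B, a hAT-Charlie DNA transposon, all between 0.05 and 0.054. Among the 1436 repeats compared, the median SD was 0.31, and L2a ranked 42, B1_Mm 175, B2_Mm2 414 and MERVL-int 1391. Abundant names have less counting error, which lowers this SD. RSINE1 had 9706 to 11131 CPM in KO and 9041 to 10653 in WT, and its log2 fold change was 0.08 ± 0.06 (SE, edgeR adjusted p = 0.637).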

How the data were processed

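The deposited files hold estimated counts of reads per repeat name, 1 file per library, with class and family; all values were whole (0 files held others). Per the submitters' processing notes, the mm10 build, Trimmomatic 0.32 and edgeR were used, without their roles. Not given in the sources used here were the aligner, repeat annotation, counting program and use of strand. Groups and replicate numbers came from the sample titles; the names of the deposited files number the replicates of each group in the opposite order.

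Rows were kept by filterByExpr, scaled by TMM and tested with edgeR 4.0.16 (R 4.3.3), KO over WT, quasi-likelihood F test, Benjamini-Hochberg over all 3312 tested rows. Standard errors were taken from the F statistic. DESeq2 1.42.0 and limma 3.58.1 served as alternatives. Single ratios used exact permutation tests (924 regroupings, two-sided). The edgeR code was tested on simulated counts.

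The members and lists were chosen with earlier results of these data known. All members that passed the filter are named with their values. Rows named beside them were L2a, B1_Mm, B2_Mm2, MERVL-int and the 5 most like the summed members. MT2_Mm marks the stage. L3, MamRTE1, L2, L2b, L2c, L2d2, and the likeness to MamSINE1 with the rows ranked 2 to 5 by it, were chosen after values were seen. Of 30 replicate pairs, chi-square per degree of freedom ran from 25.0 to 143.8, so none agreed within sampling noise.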

Additional observations from a re-analysis of the deposited data

Results flagged for a closer look

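Among 26 groups of 6 libraries examined, 3 held a library far from its neighbours relative to the range of the group, where chance gives about 5%. The flags for MIRb and for the sum below fall on the same library, and MIRb is part of that sum. The groups are thus not independent, and the number of flags cannot be weighed against that share. MIRb stood at 2289 normalised CPM in WT replicate 2, against 1976 in the next WT library. The summed ancient SINEs stood at 7298 normalised CPM in the same library, against 6610 in the next. Its high place depended on the scaling, since this library had the smallest TMM factor, 0.767. By share of all counts, its ancient SINEs were the lowest of the 12 libraries, at 0.560%. The log2 ratio of MIRb to L2a was 0.25 in KO replicate 2, with the next KO library at 0.39.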

How the results depend on the processing

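The count of members called was 0 in all 12 edgeR fits that left out 1 library, which called from 19 of 3460 to 93 of 3457 repeats. It was also 0 without both WT replicate 2 and KO replicate 5 (23 of 3426 repeats called). RLE and upper quartile scaling (40 and 49 of 3312) and no filter (18 of 10386) gave 0 members too. So did limma-voom and total counts outside the LTR class, with 2.11% and 0.525% of repeats called. At such shares, 0 of 9 does not set the members apart from other repeats. The member count was 4 (all higher) under total-count scaling, where 10.8% of repeats were called higher. It was 1 (lower) in DESeq2 and 1 (lower) with a mean of at least 10 CPM, where 3.83% and 6.36% were called lower. With the replicate number as a block it was also 0; the numbers did not pair the libraries (correlations of deviations from -0.13 to 0.20, 2 of 6 KO libraries closest to their own number). Over all repeats edgeR made 48 calls with the block and 47 without. The log2 difference in summed share was 0.40 over all counts, 0.16 outside the LTR class, 0.12 also without rRNA and simple repeats, and -0.026 within the SINE class; the denominators differ by construction. AmnSINE1, at -0.036, was 0.28 under total-count scaling (-0.042 relative to the median of all repeats there), turned to 0.028 with total counts outside the LTR class and to 0.0076 without both libraries, and ran from -0.080 to 0.0085 as single libraries were left out. LFSINE_Vert ran from -0.0036 to 0.13 over the fits that left out 1 library or both named ones, below 0 without KO replicate 3 (-0.0032) or WT replicate 4. The 3 single ratios kept direction and side of the threshold in all 15 alternatives each. For the exact sign-flip test on same-numbered replicates (replicate block), the differences could not change. They equal the differences of group means, -0.056 for L2a, 0.12 for B1_Mm and -0.12 for B2_Mm2. The p of the sign-flip test was 0.5, 0.094 and 0.469 in that order. For the 3 rarest members the spread between libraries exceeded counting error.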

Other observations

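MIR varied little among the WT libraries. Its coefficient of variation over 6 WT libraries was 1.08% of the mean with TMM scaling, the smallest among 1445 repeats with a mean of at least 10 CPM, whose median was 16.9%. Counting error alone would give 0.663%. Among the KO libraries the coefficient for MIR was 5.96%, which ranked 74, and counting error would give 0.594%. The small spread in WT depended on the scaling, since by total counts the coefficient was 7.56% in WT and 14.3% in KO. MIRb ranked 130 in WT, at 7.28% with TMM scaling and 3.07% by total counts. These ranks were looked at after the values were seen.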
